A study of Mus musculus with 6 samples.

Results

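Glutathione synthesis and recycling was followed through 10 genes of cultured mouse pancreatic bud, out of 54532 genes in the deposited table. The genes are Gclc, Gclm, Gss, Gsr, Glrx, Gpx1, Gpx4, Gpx8, Ggct and Chac1. They were chosen by symbol for their place in the pathway, with the log2 fold changes and adjusted p-values of tetrabenazine (TBZ) against control already known from the same libraries. The values of that contrast are therefore a description of these genes and support nothing beyond it. All 10 passed the filter on low counts, as did 18226 genes in all.

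Pancreatic buds of mouse embryos at E12.5 were kept in explant culture for 2 days in M199 medium with 10% fetal bovine serum and 0.1% DMSO. The control group had DMSO alone (3 libraries), and the TBZ group had 0.1 µM TBZ throughout the culture (3 libraries). TBZ is a small molecule that blocks VMAT2, the vesicular monoamine transporter encoded by Slc18a2, and the series was designed around the role of that transporter and of monoamines in pancreatic development. The labels give no strain, sex or genotype and do not say whether buds were pooled or whether libraries come from separate cultures or litters. The p-values therefore cover only the spread among these 6 libraries, which may be technical. A bud is a whole organ piece with epithelium, mesenchyme and other cells, and in such bulk RNA fewer cells of a type and less RNA per cell cannot be told apart.

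Glutathione is a tripeptide of glutamate, cysteine and glycine that cells hold at high concentration as their main soluble thiol. Glutamate-cysteine ligase, made of the catalytic subunit GCLC and the modifier subunit GCLM, carries out the rate-limiting step, and glutathione synthetase (GSS) adds the glycine. Glutathione peroxidases spend it to reduce peroxides, glutaredoxin (GLRX) uses it to reduce mixed disulfides on proteins, and glutathione reductase (GSR) returns the oxidised form to use with NADPH. CHAC1 and, after gamma-glutamyl transfer, GGCT break gamma-glutamyl peptides down. The transcription factor NRF2, which binds antioxidant response elements, is a known activator of both ligase subunits, and ATF4 is a known activator of Chac1.

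Counted reads ran from 41005819 to 50620936 per control library and from 35825033 to 40973254 per TBZ library. Of the genes that check the tissue label, Pdx1 was at 18.4 to 29.9 FPKM and Nkx6-1 at 29.9 to 51.4 FPKM over the 6 libraries (FPKM is fragments per kilobase of gene model, scaled to library size). Both had every TBZ library above every control and did not pass the edgeR test (log2 0.40 and 0.46, adjusted p of 0.249 and 0.0943). Foxa1, a factor of foregut endoderm, was at 0.0335 to 4.78 FPKM, lowest in TBZ replicates 1 and 3. Control replicate 3 stood apart for Sox2 and Pitx1, which were picked after their values were seen. Sox2 was at 12.7 CPM there (counts per library of fixed size, scaled by TMM) with 0.420 to 2.35 CPM elsewhere, and Pitx1 was at 47.8 CPM against 1.29 to 7.24 CPM. Slc18a2 itself was at 8.69 to 8.93 CPM in controls and 7.31 to 9.70 CPM in TBZ, which is no check of the treatment, since TBZ acts on the protein.

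The promoters of Gclm and Chac1, whose known regulators are named above, are shown first, since they hold letters that match the motifs of those regulators. Each window runs from 250 bases before to 50 after the RefSeq start on GRCm38.p6, is written 5′ to 3′ on the strand of the gene, and has capitals where a searched motif matches. RefSeq promoter windows were found for 8 of the 10 genes; Gclc and Gsr were not among them. In the Gclm window (chr3:122245307-122245606, plus strand) the capitals mark a match to the antioxidant response element core on the opposite strand. In the Chac1 window (chr2:119350992-119351291, plus strand) they mark a match to the ATF4 and C/EBP composite, also on the opposite strand.
Gclm: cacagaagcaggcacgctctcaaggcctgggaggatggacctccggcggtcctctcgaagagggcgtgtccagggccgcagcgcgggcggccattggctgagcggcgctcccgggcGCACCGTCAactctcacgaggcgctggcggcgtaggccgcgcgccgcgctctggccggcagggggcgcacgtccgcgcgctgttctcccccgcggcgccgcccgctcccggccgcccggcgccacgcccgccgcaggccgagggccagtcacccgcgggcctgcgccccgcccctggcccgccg
Chac1: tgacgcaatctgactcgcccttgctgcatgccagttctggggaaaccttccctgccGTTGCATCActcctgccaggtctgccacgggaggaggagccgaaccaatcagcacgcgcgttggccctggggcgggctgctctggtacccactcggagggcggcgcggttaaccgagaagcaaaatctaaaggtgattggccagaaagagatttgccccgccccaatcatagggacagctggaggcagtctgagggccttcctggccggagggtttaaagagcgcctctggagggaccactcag

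The motifs were short and common, so a match is a description of letters and not a site. The antioxidant response element core was searched as TGACNNNGC on both strands and was held by 12.4% of 32851 promoter windows. It matched once in Gclm, at -134 to -126 from the start, and in Ggct at -174 to -166 and at 5 to 13. The ATF4 composite, searched as TGATGNAAN, was held by 3.95% of windows and among the glutathione genes only by Chac1, at -194 to -186. The AP-1 motif, searched as TGANTCA, was held by 7.81% of windows and matched in Glrx at -98 to -92 from its first listed start. No match overlapped another motif. The windows of Gss, Gpx1, Gpx4 and Gpx8 held none of the 3 patterns. The stretches around the matches in Ggct (chr6:54992818-54993117, minus strand) and Glrx (chr13:75839635-75839934, plus strand) are given for comparison, with the matches in capitals.
Ggct upstream: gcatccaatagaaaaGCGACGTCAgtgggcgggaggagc
Ggct downstream: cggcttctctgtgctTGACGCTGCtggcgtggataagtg
Glrx: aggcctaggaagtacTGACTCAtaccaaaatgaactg

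The 10 genes were expressed over a wide range, and the peroxidases led. Per length, control levels were 76.1 ± 5.03 FPKM for Gpx4, 69.0 ± 1.54 for Gpx1, 57.0 ± 0.707 for Gpx8 and 41.6 ± 2.83 for Gsr (SD, n = 3). Next came Gclc at 23.3 ± 1.61, Gclm at 12.4 ± 0.363 and Chac1 at 9.84 ± 1.12 FPKM (SD, n = 3). Gss, Glrx and Ggct were lowest, at 4.49 ± 0.228, 3.19 ± 0.0482 and 1.05 ± 0.0752 FPKM (SD, n = 3). Over all 6 libraries, the neighbours in this order whose ranges overlapped were Gpx4 with Gpx1 and Gclm with Chac1. Gpx4 was still above Gpx1 within each library, by 1.02 to 1.16 times. The 3 peroxidases lay at or above the 95.5th percentile of mean FPKM among tested genes, while Ggct lay at the 27.6th. Levels depend on the length of the gene model, which is 7745 bases for Ggct and 1048 for Gpx8.

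**Figure D1:**
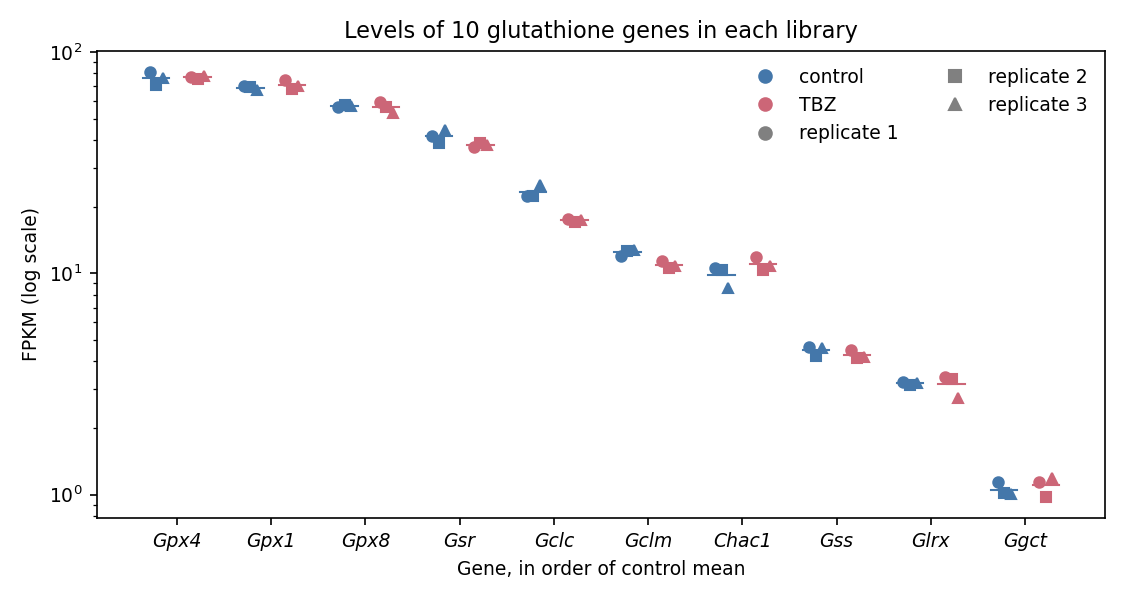
FPKM (log axis) of the 10 glutathione genes in each library, in order of the control mean; points are libraries, shapes are replicate numbers and lines are group means. Peroxidase genes sit above 50 FPKM and Ggct near 1, and the control and TBZ points of Gclc and Gclm do not overlap.

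Of the 10 genes, Gclc alone passed the edgeR threshold, and it was lower in TBZ. At an adjusted p under 0.05 in edgeR's quasi-likelihood test, 1 of 10 was lower and 0 of 10 were higher, where 0.0329% and 0.154% of all tested genes were lower and higher. At an unadjusted p under 0.05 there were 3, all lower: Gclc, Gclm and Gsr. Over all tested genes 9.61% had an unadjusted p under 0.05 in either direction. Over the 10 genes 6 log2 fold changes were negative and 4 positive, where 49.9% of all tested genes were negative, and their median was -0.016, beside 0.00031 over all tested genes. The median size regardless of sign was 0.068, against 0.081 over all genes. For 2 of 10 genes every TBZ library was below every control, as for 7.03% of tested genes, and 0 of 10 had every TBZ library above, as for 8.47%. These shares are printed beside the counts for reference only, since the genes were named with this contrast known.

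**Figure D2:**
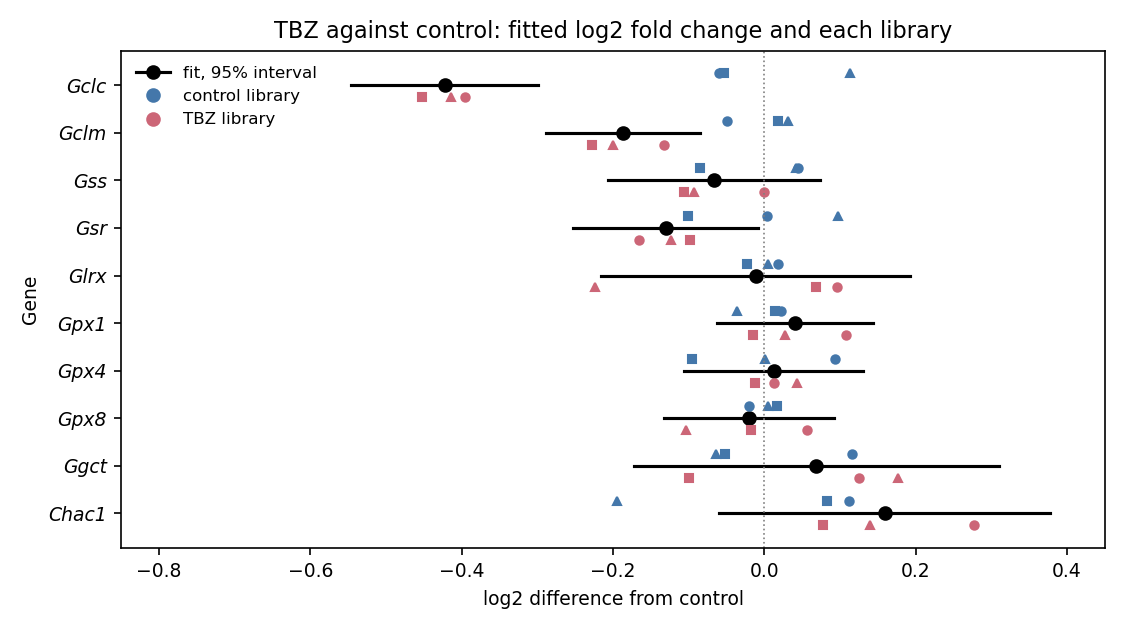
Log2 difference from control (x axis) for each glutathione gene (y axis): black points and bars are the edgeR log2 fold change with its 95% interval, coloured points are single libraries relative to the mean of the controls, with shapes for replicate numbers as in the plot of levels. Gclc (-0.42) and Gclm (-0.19) have all TBZ libraries left of all controls, and the 3 peroxidase genes straddle 0.

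Gclc encodes the catalytic subunit of glutamate-cysteine ligase and lies at chr9:77754535-77794485 (mm10, plus strand, 18 exonic blocks). Its level was 84.1, 84.6 and 94.9 CPM in control replicates 1 to 3. In TBZ replicates 1 to 3 it was 66.7, 64.1 and 65.9 CPM. The groups did not overlap, the TBZ libraries lay close together, and control replicate 3 was the highest of all. The log2 fold change was -0.42 ± 0.055 (SE; 95% interval -0.55 to -0.30), a level that fell by 25.4% (edgeR adjusted p = 0.0292). The authors' deposited table gives a log2 fold change of -0.42 with an adjusted p of 2.11e-07.

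The fall of Gclc kept its direction in all 14 alternative fits, with log2 fold changes from -0.46 to -0.36, and passed the threshold in 5 of them. Leaving out control replicate 2 or any of the TBZ libraries ended the call, with adjusted p from 0.0741 to 0.176 (edgeR). Without control replicate 3, the library with high Sox2 and Pitx1, the log2 fold change was -0.36 and the edgeR adjusted p 0.0158. Among the 6 libraries, control replicate 3 also had the highest summed mesothelial markers (844 CPM) and neural crest and glia markers (242 CPM). Its summed acinar (5320 CPM) and endocrine (827 CPM) markers were the lowest. TBZ replicate 2 also differed from TBZ replicates 1 and 3, with mesothelial sums of 768 CPM against 612 and 612 CPM. Its stomach and oesophagus sum was 220 CPM against 165 and 172 CPM, and its endocrine sum 856 CPM against 1174 and 1175 CPM. Its mesenchymal sum of 7856 CPM lay between those of TBZ replicates 1 and 3 (8818 and 7734 CPM).

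Of 17 tested acinar markers, 5 rose (among them Pnliprp1 and Cel), where 0.154% of all tested genes rose. The other 12 did not pass, and all 17 log2 fold changes were positive. Over the 17 genes 13 had an unadjusted p under 0.05, and their summed level was 5320 to 6325 CPM in controls and 7971 to 9650 CPM in TBZ. For this and the unadjusted counts of the next marker lists, the share over all tested genes was 9.61%. Of 17 epithelial markers 13 were positive and none passed (6 at an unadjusted p under 0.05), with sums of 2693 to 2977 and 2933 to 3239 CPM. Of 18 endocrine markers 17 were positive and none passed (5 unadjusted), with a median of 0.25 and sums of 827 to 965 and 856 to 1175 CPM. Of 15 mesenchymal markers 10 were negative and none passed (1 unadjusted), with overlapping sums of 7600 to 8742 and 7734 to 8818 CPM. Of 10 mesothelial markers 9 were negative and none passed (1 unadjusted), with a median of -0.19 and sums of 686 to 844 and 612 to 768 CPM. Of 12 stomach and oesophagus markers 7 were negative, none passed (5 unadjusted), and sums were 177 to 269.7 and 165 to 220.1 CPM. Cpa1, Epcam, Vim and Pdx1 were above 0 in every library, and the acinar marker Cuzd1 was listed at 0 in all. Krt19 and Barx1 each stand in more than 1 of these lists and count in each. The part of these marker values in the fall of Gclc was not tested.

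Gclm, the modifier subunit that lowers the ligase's sensitivity to feedback by glutathione, lies at chr3:122245557-122270732 (mm10, plus strand). It stood at 75.8, 79.5 and 80.2 CPM in control replicates 1 to 3, against 71.6, 67.0 and 68.3 CPM in TBZ replicates 1 to 3. Every TBZ library was below every control, though the highest TBZ and the lowest control value were close. The log2 fold change was -0.19 ± 0.045 (SE; 95% interval -0.29 to -0.085) with an edgeR adjusted p of 0.196, which does not pass. No alternative put it past the threshold (adjusted p from 0.0643 to 0.577). Exons of Gclm overlap Gm17494 on the other strand by 296 bases and the pseudogene Gm6061 on the same strand by 244. These are sums over annotated exons, in which a base of several transcripts can count repeatedly. The labels do not say that the libraries kept strand, so reads shared with Gm17494 cannot be told apart. Strand would not separate those shared with Gm6061.

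Within a library the ratio of the subunit transcripts was lower in TBZ. Gclc exceeded Gclm per length by 1.85, 1.78 and 1.98 times in control replicates 1 to 3 and by 1.556, 1.598 and 1.611 times in TBZ replicates 1 to 3. These ratios do not overlap between groups, and their means were 1.87 ± 0.101 and 1.59 ± 0.0286 (SD, n = 3 each). They are built from the contrast that was known when the genes were named and carry no test. Protein levels and enzyme activity were not analysed here.

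Gss encodes the enzyme of the final step and did not pass the test. Its values were 27.4, 25.05 and 27.4 CPM in control replicates 1 to 3 and 26.6, 24.7 and 24.9 CPM in TBZ replicates 1 to 3, so that the groups overlapped. The log2 fold change was -0.067 ± 0.062 (SE; 95% interval -0.21 to 0.074; edgeR adjusted p = 0.774). Exons of Gss overlap Acss2 by 568 bases and the antisense genes Gssos2 and Gssos1 by 764 and 322, all on the other strand. These too are sums over annotated exons, in which a base can count repeatedly. Acss2 had a log2 fold change of -0.20. The ratio of Gclc to Gss per length was 4.82 to 5.45 in controls and 3.94 to 4.15 in TBZ.

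Gsr, the NADPH-dependent reductase that recycles oxidised glutathione, had the next negative value after Gclm. It stood at 114.8, 106.9 and 122.6 CPM in control replicates 1 to 3, against 102.2, 107.1 and 105.2 CPM in TBZ replicates 1 to 3. The groups met at control replicate 2, which was level with TBZ replicate 2. The log2 fold change was -0.13 ± 0.054 (SE; 95% interval -0.25 to -0.0079), with an edgeR adjusted p of 0.490. The ratio of Gsr to Gclc per length was 1.79 ± 0.0715 in controls and 2.19 ± 0.0946 in TBZ (SD, n = 3 each). Glrx, the cytosolic glutaredoxin, was at 17.3 to 17.8 CPM in controls, while TBZ replicates 1 to 3 had 18.8, 18.4 and 15.1 CPM. TBZ replicate 3 was the lowest library for Glrx and the other TBZ libraries the highest, and the log2 fold change was -0.011 (edgeR adjusted p = 0.983).

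**Figure D3:**
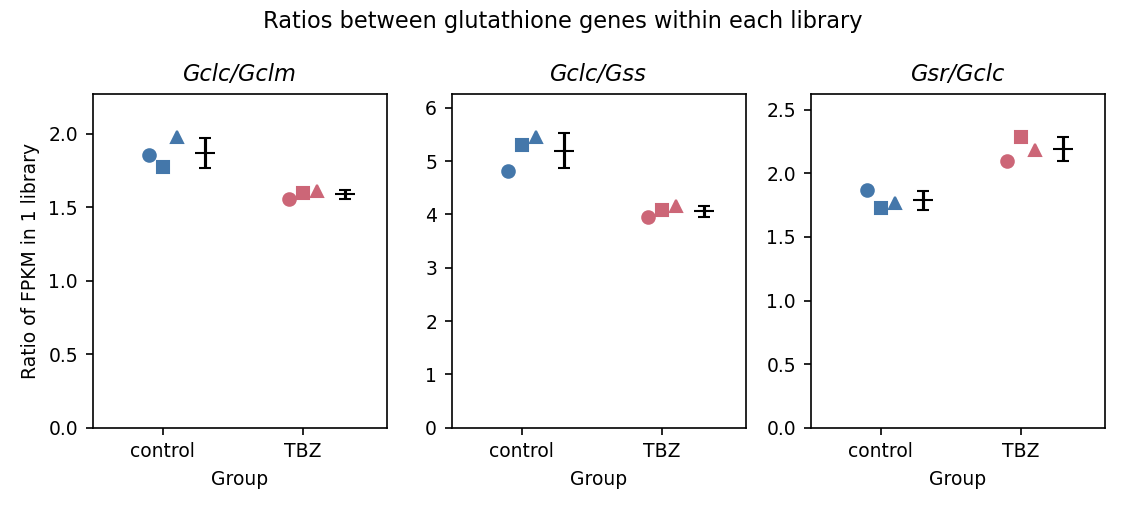
Ratio of FPKM between glutathione genes within 1 library (y axes from 0) for control and TBZ; points are libraries, shapes are replicate numbers and bars are mean ± SD. Gclc/Gclm and Gclc/Gss are lower in every TBZ library than in every control, and Gsr/Gclc is higher.

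None of the 3 peroxidase genes passed the test, and none of their intervals reached the log2 fold change of Gclc. Gpx1 encodes the abundant peroxidase of cytosol and mitochondria and lies in 1 exonic block at chr9:108338903-108340343. It was at 101.1, 100.6 and 97.1 CPM in control replicates 1 to 3, against 107.4, 98.6 and 101.5 CPM in TBZ replicates 1 to 3, a log2 fold change of 0.041 (95% interval -0.062 to 0.14). Gpx4 encodes the peroxidase that reduces lipid hydroperoxides in membranes and guards against ferroptosis. It was at 140.3, 123.0 and 131.5 CPM in control replicates 1 to 3, against 132.6, 130.3 and 135.4 CPM in TBZ replicates 1 to 3, a log2 fold change of 0.012 (-0.11 to 0.13).

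Gpx8 encodes a peroxidase of the endoplasmic reticulum membrane that, unlike GPX1 and GPX4, has no selenocysteine. It was at 59.0, 60.6 and 60.1 CPM in control replicates 1 to 3, against 62.3, 59.1 and 55.7 CPM in TBZ replicates 1 to 3, a log2 fold change of -0.020 (-0.13 to 0.092). For all 3 genes the groups overlapped, the edgeR adjusted p lay between 0.818 and 0.963, and the 3 intervals lay between -0.13 and 0.14. A p that misses the threshold does not show that the levels are the same.

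The genes of breakdown had positive values that did not pass. Chac1 encodes a gamma-glutamyl cyclotransferase that cleaves glutathione in the cytosol. It stood at 17.4, 17.02 and 14.1 CPM in control replicates 1 to 3, against 19.5, 16.96 and 17.7 CPM in TBZ replicates 1 to 3. Control replicate 3 was low and TBZ replicate 1 high, with the other libraries between them. The log2 fold change was 0.16 ± 0.097 (SE; 95% interval -0.059 to 0.38; edgeR adjusted p = 0.644), and it was 0.072 to 0.21 over the 14 alternatives. Ggct, the cyclotransferase that acts on other gamma-glutamyl peptides, was at 7.80 to 8.84 CPM in controls and 7.61 to 9.22 CPM in TBZ, with a log2 fold change of 0.069 (-0.17 to 0.31). Its 310 to 414 reads per library give a counting error of about 5.30%, beside a fitted biological coefficient of variation of 9.59%.

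The measured spread among controls varied between the genes, but 3 libraries fix it poorly. The coefficient of variation was 1.30% for Gpx8 and 1.46% for Glrx, 2.18% for Gpx1 and 2.98% for Gclm. Counting error alone is about 1.98% for Gpx8 and 3.65% for Glrx. The measured values of both genes lie below it, so they do not show a steadier level. The coefficient was 6.96% for Gclc, 6.83% for Gsr, 6.55% for Gpx4 and 11.3% for Chac1, beside a median of 7.35% over all tested genes. In TBZ the order changed, with 2.03% for Gclc and 11.8% for Glrx. Summed over the 10 genes, the level was 622 to 653 CPM in controls and 594 to 616 CPM in TBZ. Without Gclc the sums were 537.8 to 562.5 and 529.7 to 549.7 CPM, which overlap.

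Genes that feed, use or sit beside the pathway were taken from lists that were also drawn up with earlier results known. The lists are not separate: Gpx2, Slc7a11 and Txnrd1 stand in more than 1 and count in each. For cystine uptake, cysteine supply and glutathione transport, 6 of 10 tested genes were positive, 1 rose and none fell (2 at an unadjusted p under 0.05). For this list and those that follow, the shares over all tested genes were 0.154% risen and 0.0329% fallen at the edgeR threshold. At an unadjusted edgeR p under 0.05 the share was 9.61%. Cbs, whose product starts the transsulfuration route to cysteine, rose from 56.6 ± 2.62 to 75.9 ± 5.08 CPM (SD, n = 3 each; log2 0.42, edgeR adjusted p = 0.0316), and passed in 5 of 14 alternatives. Slc7a11, the cystine importer subunit, was at 21.4, 21.2 and 22.5 CPM in control replicates 1 to 3, against 19.1, 18.3 and 16.96 CPM in TBZ replicates 1 to 3. It did not pass (log2 -0.26, edgeR adjusted p = 0.245), and its partner Slc3a2 had a log2 fold change of 0.029. The neutral amino acid transporter Slc1a5 had one of -0.17.

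Among genes of glutathione breakdown 4 of 9 were negative and 5 positive, with none past the edgeR threshold and 2 at an unadjusted p under 0.05. Chac2, the slower paralogue of Chac1, was at 9.98 to 10.9 CPM in controls and 13.1 to 13.8 CPM in TBZ (log2 0.35, edgeR adjusted p = 0.156). Anpep had a log2 fold change of 0.23, Ggt1 of -0.16 and Cndp2 of -0.097. Among other peroxidases, glutaredoxins and glutathione-dependent enzymes 6 of 13 were negative and none passed (2 unadjusted). Gpx2, the epithelial peroxidase, was at 80.0 to 94.3 CPM in controls and 61.6 to 74.6 CPM in TBZ, without overlap (log2 -0.35, edgeR adjusted p = 0.171). Ethe1 had a log2 fold change of -0.33, Adh5 of -0.086 and Glo1, the first glyoxalase and the highest of that list per length, of -0.016.

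Glutathione S-transferases, which couple glutathione to other molecules, were negative for 15 of 24, with a median of -0.036. None passed the edgeR test, while 10 of 24 had an unadjusted p under 0.05, as did 9.61% of all tested genes. The abundant Gstm1 was at 291 to 341 CPM in controls and 245 to 269 CPM in TBZ (log2 -0.31), and Gstp1 at 113 to 135 and 93.1 to 102 CPM (log2 -0.37, edgeR adjusted p = 0.0869). Gstt1 went the other way, at 5.42 to 5.53 and 7.48 to 7.71 CPM. Gsta1 was rare, at 0.355 to 1.71 CPM in controls and 0.0245 to 0.124 CPM in TBZ. These families hold close copies among which reads can be misassigned, so single values are uncertain.

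GSR needs NADPH, and of 11 tested genes of NADPH supply 5 were negative, 1 rose and none fell. The list holds dehydrogenases, the NAD kinase genes Nadk and Nadk2, and the transhydrogenase gene Nnt. Over all tested genes 0.154% rose and 0.0329% fell. An unadjusted edgeR p under 0.05 was found for 4 of the 11, beside 9.61% of all tested genes. Pgd, of the pentose phosphate route, was at 199 to 240 CPM in controls and 170.1 to 174.1 CPM in TBZ (log2 -0.32, edgeR adjusted p = 0.124). Me1 had a log2 fold change of -0.19. Idh2, the highest of the list, had one of 0.045. Me3, a mitochondrial malic enzyme with a mean of 0.275 FPKM in controls, rose (log2 0.81, edgeR adjusted p = 0.0340), and passed in 3 of 14 alternatives, between 0.34 and 0.87.

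Other known NRF2 targets were mostly negative. Of 20 tested, 18 had negative log2 fold changes, where 49.9% of all tested genes did. The median was -0.20, beside -0.016 for the 10 glutathione genes and 0.00031 for all genes. At the edgeR threshold 2 fell, beside 0.0329% of all tested genes, and none rose, beside 0.154%. An unadjusted edgeR p under 0.05 was found for 16 of the 20, beside 9.61% of all tested genes. For 13 of the 20 every TBZ library was below every control, as for 7.03% of all tested genes. Srxn1, which encodes sulfiredoxin, fell from 67.4 ± 3.49 to 39.6 ± 2.18 CPM (SD, n = 3 each), and Nqo1, a quinone reductase, was at 20.6, 19.3 and 22.5 CPM in control replicates 1 to 3, against 11.3, 10.4 and 8.18 CPM in TBZ replicates 1 to 3, and fell too (edgeR adjusted p of 0.00333 and 0.0160). Cbr3 (log2 -1.17, edgeR adjusted p = 0.0523) and Fth1 (log2 -0.15) did not pass. The list was drawn up with earlier results of these libraries known, so its direction is not independent evidence. The regulators did not pass: of 11, 6 were negative and 2 had an unadjusted p under 0.05. Nfe2l2, which encodes NRF2, was at 82.7 to 90.8 CPM in controls and 80.8 to 84.4 CPM in TBZ (log2 -0.055), Keap1 had a log2 fold change of -0.098, Mafg of -0.17 and Maff of -0.18. Sqstm1, the highest of the regulators per length, had one of -0.065.

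GPX1 and GPX4 are selenoproteins, and other selenoprotein genes did not pass either. Of 21 tested, 9 were negative, none passed the edgeR test (2 unadjusted, Gpx2 and Txnrd1) and the median was 0.020. Txnrd1 had a log2 fold change of -0.17, Selenot of 0.12 and Selenow, the highest per length, of -0.13. Of 8 genes that make selenoproteins, 5 were negative, none passed (0 at an unadjusted p under 0.05) and the median was -0.029. Trnau1ap had a log2 fold change of -0.078, Eefsec of -0.072, Scly of 0.067 and Sephs1 of 0.028. In the ATF4 response, to which Chac1 belongs, 13 of 27 were negative and 14 positive, none passed (9 unadjusted, beside 9.61% of all tested genes) and the median was 0.0082. Nupr1 had a log2 fold change of 0.30, Cebpg of -0.18 and Phgdh of 0.11.

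**Figure D4:**
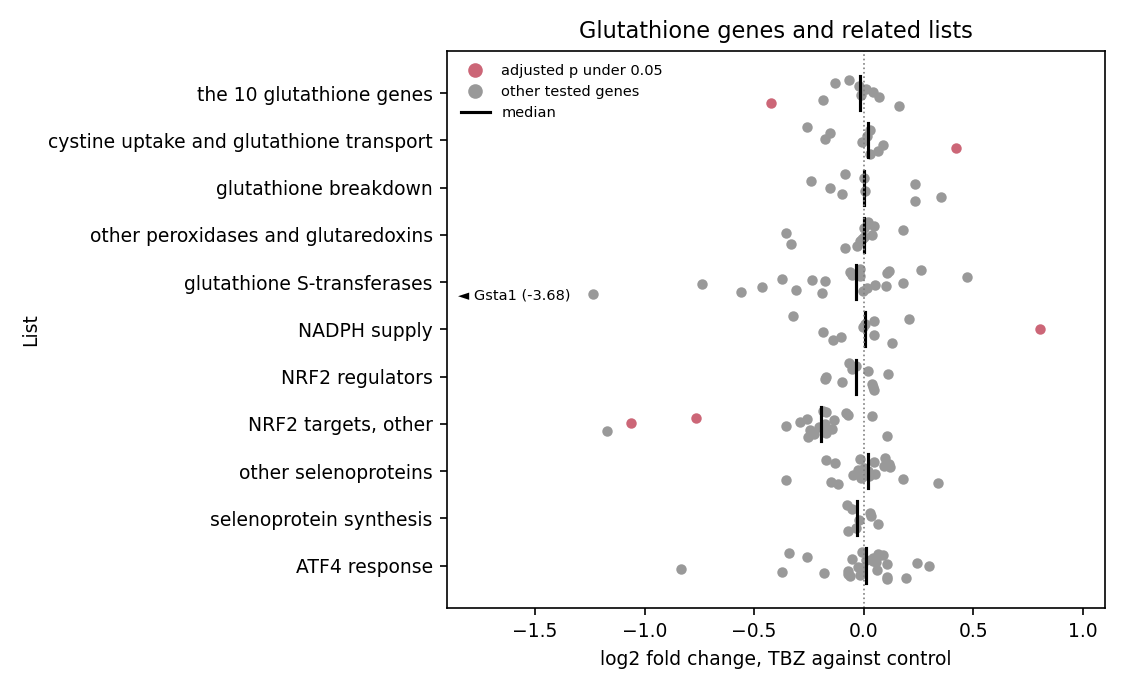
EdgeR log2 fold change of TBZ against control (x axis) for each tested gene of each list (y axis); red points have an adjusted p under 0.05, grey points do not, and bars are list medians, with Gsta1, a fit to few reads, off the scale at -3.68. The median of other NRF2 targets (-0.20) lies left of 0, and those of the glutathione genes and the selenoproteins lie near 0. A gene is drawn in every list that holds it.

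The 5 protein-coding genes whose pattern over the 6 libraries was closest to that of Gclc were found among 12205 with at least 1 FPKM in a group. Closeness was the root mean square difference of log2 CPM after centring each gene on its own mean. They were Tesc (0.0609), Gfra4 (0.0626), Pgd (0.0637), Gm12258 (0.0660) and Gstp1 (0.0662), with log2 fold changes of -0.35, -0.38, -0.32, -0.34 and -0.37. Pgd and Gstp1 are in the NADPH and transferase lists above, and none of the 5 passed the edgeR test.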

How the data were processed

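RNA of 3 control and 3 TBZ samples was poly-A selected and made into NEBNext Ultra libraries, per the labels' protocols. The submitters' processing notes name STAR, HTSeq and the mm10 build; versions, counting mode and strand setting are not given in the sources used here. Per the file headers, the authors deposited raw counts and FPKM for each library, a signal value per group (close to the mean of scaled counts, from the values, and not used here), and the log2 fold change with p-value and adjusted p-value of TBZ against control.

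Counts were tested with edgeR 4.0.16 (R 4.3.3; TMM, filterByExpr, quasi-likelihood F test, Benjamini-Hochberg over 18226 genes, adjusted p under 0.05), tested first on simulated data. SE was taken as the size of the log2 fold change divided by the root of its F. Values are TMM-scaled CPM unless FPKM is named. The biological coefficient of variation was 8.30%. Spans of all 10 genes matched GENCODE M21. The alternatives were DESeq2 1.42.0, limma 3.58.1 on log2(FPKM + pseudocount), RLE scaling, no filter, a replicate block and leaving out each library. The genes and lists were chosen with earlier results of these data known. Named from each pathway list were the 3 genes with the smallest p and the one with the highest FPKM, and always Slc18a2, Slc7a11 and Nfe2l2; others (Sox2, Pitx1, Foxa1, the other tissue markers, Acss2, Nnt) were chosen after their values were seen. Erythroid, macrophage, endothelial and neural marker lists were run too: no gene of these passed, and their median log2 fold changes were -0.11, -0.027, 0.059 and -0.087.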

Additional observations from a re-analysis of the deposited data

How the results depend on the processing

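The count of glutathione genes that fell was 1 and became 0 with the replicate number as a block, with limma on log2 FPKM at a pseudocount of 0.5, 0.1 or 1, and with limma with no filter (2 with an unadjusted p under 0.05 with the block, 3 in each limma fit); it was 0 to 1 when single libraries were left out, and it stayed at 1 with DESeq2, RLE scaling and no edgeR filter. The count of those that rose was 0 throughout. Over all genes the count of 34 became 222 with DESeq2, 445 with no filter, 5 with the block, 14, 13 and 14 with limma at pseudocounts 0.5, 0.1 and 1, and 0 with limma and no filter (2135 unadjusted), and was 5 to 36 without single libraries, lowest without TBZ replicate 3 (5), TBZ replicate 1 (11) and control replicate 2 (13). The block gave Gclc -0.42 (edgeR adjusted p = 0.117). Same-numbered libraries did not deviate together (correlations -0.0079, -0.18 and -0.079). No library correlated best with its own number, so the numbers were not used as pairs. Near 0, signs turned for Glrx (0.081; -0.071 to 0.081 over single libraries left out) and Gpx8 (0.018; -0.062 to 0.018) without TBZ replicate 3, and for Gpx4 (-0.033 to 0.058) without control replicate 2 (-0.033) or TBZ replicate 3 (-0.0033). The cause was not tested. Other NRF2 targets past the threshold numbered 2, against 5 with DESeq2, 6 with no filter, 1 with the block or a pseudocount of 0.1 and 0 with limma and no filter. S-transferases that fell numbered 0, against 2 with DESeq2, 6 with no filter and 1 without control replicate 1, and those that rose numbered 0, against 1 with DESeq2, with no filter and with limma at each of the 3 pseudocounts with its filter. With 3 libraries a group, changes below the intervals given are not resolved.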

Other observations

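Nnt, the mitochondrial transhydrogenase that makes NADPH for glutathione reduction, was counted at only 14 to 30 reads per library (0.0492 to 0.119 FPKM) under its longer gene model and at 0 under a shorter one of the same symbol. Idh2, another mitochondrial source of NADPH, had a mean of 129 FPKM in controls and 133 FPKM in TBZ. The labels do not name the mouse strain.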
